A study of Mus musculus with 8 samples.

Results

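The granins are a family of acidic secretory proteins that neurons and endocrine cells sort into dense-core vesicles, and the 6 family members described here are *Vgf*, *Scg2*, *Scg3*, *Scg5*, *Chga* and *Chgb*. They were chosen by gene name from the 45706 genes that were quantified, and each name matched 1 gene. All 6 passed the filter on low counts, as did 17495 genes in all. Ribosome-associated mRNA was sequenced after pulldown of HA-tagged RPL10a, a ribosomal protein, from PV+ interneurons, the fast-spiking GABAergic cells that express parvalbumin. All mice were PvalbFlp/+;Neurod6Cre/+, received in S1, the primary somatosensory cortex, on postnatal day 1 an AAV with a flox-fdio construct for HA-RPL10a and myc-hM3Dq, and were 42 to 70 days old. In 4 samples the mice had been given 5 injections of CNO at 1 mg/kg over 48 h (CNO), and in the other 4 samples vehicle on the same schedule (VEH), with tissue from 4 brains pooled in each sample.

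The virus used the human synapsin promoter, so expression required a neuron with Flp recombinase and without Cre. Neurod6-driven Cre switched the construct off in pyramidal cells, and infection was sparse. Both groups carried hM3Dq, a receptor that raises neuronal firing when CNO binds it. No group received CNO without the receptor. A sample was a pool, so that animals within a pool could not be compared, and p-values measured the spread between 4 pools a group.

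Granins help to form the dense core of secretory vesicles, and several are also prohormones that are cut into peptides. *Vgf* encodes the precursor of peptides such as TLQP-62 and TLQP-21, and *Scg2* encodes secretogranin II, the precursor of secretoneurin. Both are known as genes that neurons transcribe more when their activity or neurotrophin signalling rises. *Chga* and *Chgb* encode chromogranins A and B, *Scg3* encodes secretogranin III, which tethers chromogranin A to the vesicle membrane, and *Scg5* encodes 7B2, the chaperone and inhibitor of the prohormone convertase PC2.

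Granin promoters are known for cAMP response elements, the sites of CREB-family factors, and the sequence around the nearest match before the RefSeq start of each gene is shown because neuronal activity is known to act on transcription through such elements. The sequences are from RefSeq (GRCm38.p6), where 5 of the 6 genes had an entry in the promoter table used. *Vgf* had none, so its promoter was not examined. Each sequence is a 30-base stretch of the gene's own strand, written 5′ to 3′, from the window between 250 bases before and 50 bases after the annotated start. Capitals mark the full element, TGACGTCA, or, where that was not found, its first 5 letters, TGACG. The stretches lie at chr1:79440076-79440105 (minus strand) for *Scg2*, chr2:132781559-132781588 (plus) for *Chgb*, chr12:102554886-102554915 (plus) for *Chga*, chr9:75684068-75684097 (minus) for *Scg3* and chr2:113829248-113829277 (minus) for *Scg5*.
Scg2: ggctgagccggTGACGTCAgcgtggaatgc
Chgb: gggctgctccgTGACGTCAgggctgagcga
Chga: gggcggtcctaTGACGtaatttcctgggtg
Scg3: cgctgggtcgcTGACGccatcctcacgcct
Scg5: aaggaggtaaaTGACGttcataggggtcga

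The full element TGACGTCA, which reads the same on both strands, was found in *Scg2* and *Chgb*, 68 and 72 bases before the RefSeq start. By the GENCODE coordinates given with the genes, both stretches lie inside the gene, after its outermost annotated start. Of 32851 promoter windows of 300 bases, 588 (1.79%) hold it. The short form TGACG or its reverse complement CGTCA, which also occurs inside the full element, was found in all 5 windows and in 20.8% of all windows. The AP-1 letters TGAGTCA or TGACTCA were in none of the 5 windows and in 5.20% of all windows. Among the 5 windows, which do not include *Vgf*, *Scg2* and *Chgb* thus shared the full element, and the letters describe these windows only.

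On GRCm38 (GENCODE release 21), *Vgf* (ENSMUSG00000037428) lies on chromosome 5 from 137026392 to 137033351 with 5 exons, and *Scg2* (ENSMUSG00000050711) on chromosome 1 from 79434669 to 79440120 with 2 exons. *Scg3* (ENSMUSG00000032181) lies on chromosome 9 from 75643189 to 75684056 with 12 exons, and *Scg5* (ENSMUSG00000023236) on chromosome 2 from 113776362 to 113829121 with 6. *Chga* (ENSMUSG00000021194) lies on chromosome 12 from 102554969 to 102565028 with 8 exons, and *Chgb* (ENSMUSG00000027350) on chromosome 2 from 132781278 to 132795079 with 5. The longest coding sequence was 1851 bases in both *Vgf* and *Scg2*, 2031 in *Chgb*, 1413 in *Scg3*, 1389 in *Chga* and 636 in *Scg5*. No granin gene overlapped an exon of another gene. Of the 31-base stretches of its transcripts, *Chga* shared 0.996% with other genes and the other 5 granins shared none, so their reads could be assigned to them.

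Between 44064161 and 49413273 reads per sample were assigned to genes, and 3 reads, the lowest level taken as detectable, equal 0.0607 to 0.0681 CPM (counts scaled to library size). This floor covers counting error only. The pulldown held PV+ interneuron mRNA together with mRNA of other cells. All 12 PV+ interneuron markers and all 12 pyramidal cell markers of 2 lists were detected in every sample. The 12 PV+ interneuron markers summed to 2830 to 4357 TPM (a unit that corrects for the length of the transcript and for depth) with CNO. With VEH they summed to 1379 in replicate 1 and 3221 to 3526 in replicates 2 to 4. The 12 pyramidal cell markers summed to 1419 to 1957 TPM with CNO and 1608 to 2290 with VEH, the highest in VEH replicate 1. VEH replicate 1 therefore stood apart from the other 7 samples, and the changes of the granins are given with and without it. *Fos*, an immediate early gene that marks neuronal activation, had 61.2 ± 21.0 TPM (SD, n = 4) in CNO samples and 17.0 ± 2.97 (SD, n = 4) in VEH samples, every CNO sample lying above every VEH sample.

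The granins were well expressed in the pulldown, and together they reached 769.6 to 1099 TPM with CNO and 534.2 to 880.7 TPM with VEH. *Scg5*, the PC2 chaperone, was the most abundant member, with a mean over the 8 samples of 333.5 TPM, higher than 97.9% of the genes tested. *Chgb* followed with 184.6 TPM, *Chga* with 120.1 and *Scg2* with 108.7. *Vgf* and *Scg3* had the lowest levels, 57.05 and 43.31 TPM, which were still above those of 80.5% and 75% of the genes tested.

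The order of levels was compared between neighbours within each sample as a difference in log2(TPM + 1) (two-sided exact sign-flip permutation test, adjusted by Benjamini-Hochberg over the 5 neighbour pairs). *Scg5* exceeded *Chgb* by 0.86 ± 0.11 (SD, n = 8), *Chgb* exceeded *Chga* by 0.63 ± 0.11 (SD, n = 8) and *Scg2* exceeded *Vgf* by 0.90 ± 0.11 (SD, n = 8). Each of these held in 8 of 8 samples (exact p = 0.00781, the smallest that 8 samples allow, and adjusted p = 0.0130). *Chga* and *Scg2* were not separated beyond their spread over both groups, with a difference of 0.17 ± 0.24 (SD, n = 8, exact adjusted p = 0.0859). *Chga* was the higher in 6 of 8 samples, and the exceptions were CNO replicates 3 and 4, so this spread holds any difference between the groups. *Vgf* exceeded *Scg3* by 0.36 ± 0.29 (SD, n = 8) in 6 of 8 samples (exact adjusted p = 0.0391), and without any 1 of 6 of the samples this adjusted p lay between 0.0625 and 0.0781. The 2 samples in which *Vgf* lay below *Scg3* were VEH replicates 1 and 2.

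The study asked which ribosome-associated mRNAs change in PV+ interneurons after their activity has been raised for 48 h, and the granin genes are compared here between the groups. *Vgf* and *Scg2* had higher mean levels with CNO, at folds of 1.49 and 1.55, whereas *Chgb*, *Chga*, *Scg5* and *Scg3* had folds of 1.2, 1.18, 1.15 and 1.05. None of the 6 genes passed an adjusted p of 0.05 with edgeR's quasi-likelihood test, and *Vgf* and *Scg2* were the members with an unadjusted p under 0.05. The paper, using edgeR with a robust dispersion estimate, listed both among its upregulated genes. By in situ hybridization after CNO, it also found more of both mRNAs in hM3Dq+ PV+ interneurons than in uninfected neighbours. Here edgeR's likelihood ratio test on robust dispersion put the log2 fold change at 0.479 for *Vgf* and 0.56 for *Scg2*, both under 1.5-fold. Its adjusted p was 0.833 and 0.692, so neither gene passed with a robust dispersion estimate either. Why the calls from sequencing differ was not tested.

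**Figure D1:**
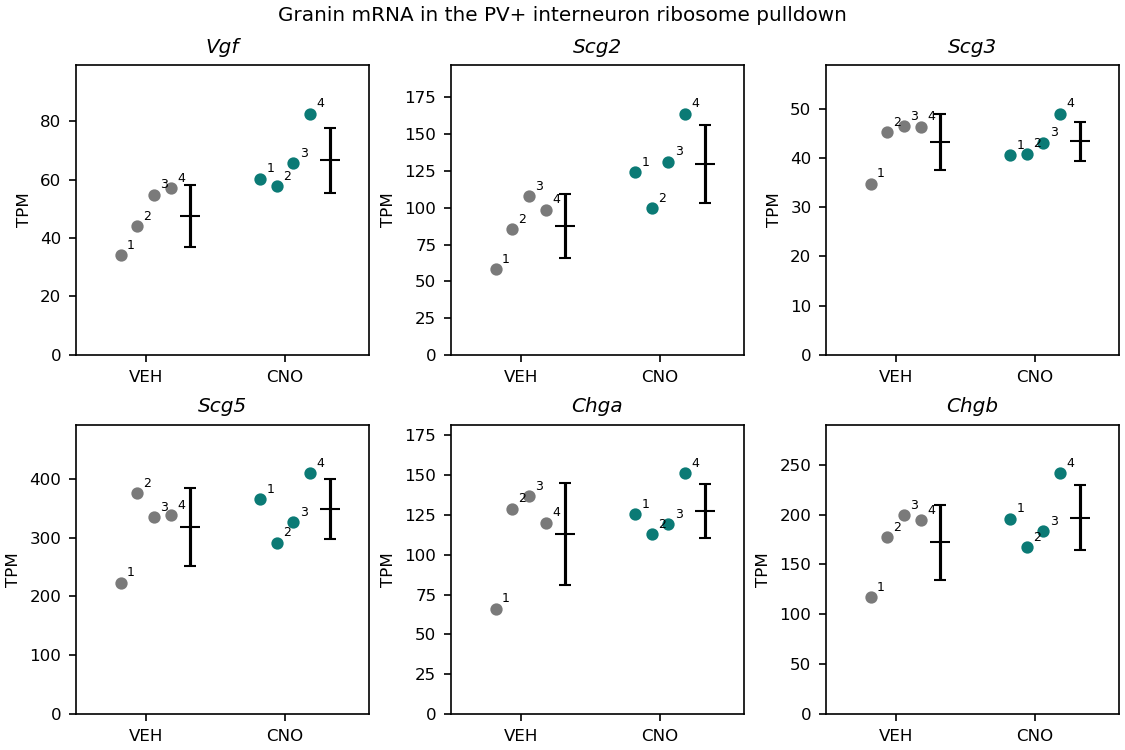
TPM (linear axis from 0) of each granin gene in each sample, with VEH in grey and CNO in teal, replicate numbers beside the points, and the mean with SD of 4 samples to the right of each group. *Vgf* lay between 57.68 and 82.59 TPM with CNO and between 34.23 and 57.15 with VEH, while the groups overlapped in the other 5 genes, and VEH replicate 1 was the lowest sample of every gene.

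*Vgf* had 60.3, 57.7, 65.6 and 82.6 TPM in CNO replicates 1 to 4 and 34.2, 43.999, 54.9 and 57.15 TPM in VEH replicates 1 to 4. The highest sample was CNO replicate 4 and the lowest was VEH replicate 1. In TPM the lowest CNO sample lay just above the highest VEH sample, whereas in CPM, normalized by edgeR's TMM method, CNO replicate 2 (60.5) lay just below VEH replicate 4 (60.6), so that the groups overlapped. On the CPM scale the groups overlapped in all 6 granins, while they did not overlap in 2.42% of all genes in either direction. Over all genes tested, 0.629% had every CNO sample above every VEH sample in TPM and 0.789% in CPM. The mean was 66.5 ± 11.2 TPM (SD, n = 4) in CNO samples and 47.6 ± 10.6 (SD, n = 4) in VEH samples. The VEH mean without replicate 1 was 52.0 ± 7.03 TPM (SD, n = 3). On log2 CPM the two-sided exact permutation test gave p = 0.0857, or exact p = 0.114 without VEH replicate 1, and on log2(TPM + 1), a scale added after seeing the data, exact p = 0.0286, the smallest that 4 samples against 4 allow. *Vgf* thus sat at the edge of overlap, and the unit decided on which side.

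*Scg2* had 124, 99.5, 131 and 164 TPM in CNO replicates 1 to 4 and 58.3, 85.3, 108 and 98.7 TPM in VEH replicates 1 to 4. Again CNO replicate 4 was highest and VEH replicate 1 lowest, and CNO replicate 2 lay below VEH replicate 3, so the groups overlapped in 1 sample. Its mean was 129.8 ± 26.6 TPM (SD, n = 4) in CNO samples and 87.6 ± 21.6 (SD, n = 4) in VEH samples. The two-sided exact permutation test gave p = 0.0857 on log2 CPM and 0.0571 on log2(TPM + 1). The VEH mean without replicate 1 was 97.3 ± 11.4 TPM (SD, n = 3), and the exact permutation p on log2 CPM was then 0.143.

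Across all genes, edgeR's quasi-likelihood test on counts put the log2 fold change at 0.58 for *Vgf* (standard error 0.20, unadjusted p = 0.0153) and at 0.63 for *Scg2* (standard error 0.22, unadjusted p = 0.0165). By this p, *Vgf* ranked 129 and *Scg2* 146 among the 17495 genes tested. With Benjamini-Hochberg adjustment over all genes the quasi-likelihood test of edgeR gave both an adjusted p = 0.817. The adjusted p ranged from 0.0139 to 1 for *Vgf* and from 0.0348 to 1 for *Scg2* over 24 alternatives. Both lower ends came from 1 combination added after seeing the data, the likelihood ratio test on robust dispersion with a term for replicates 1 and 2 against 3 and 4, and in the other 23 alternatives neither gene passed 0.05. Of all genes, 4.09% had an unadjusted p under 0.05, 1.44% with a higher level under CNO, beside 2 of the 6 granins. Cut-offs were set at 0.05 for the adjusted p, 1.5 for the fold and 1 for the mean TPM. They were passed together by 0 genes (0%) with the quasi-likelihood test, 716 genes having an unadjusted p under 0.05. They were passed by 12 genes (0.0686%) with edgeR's likelihood ratio test on robust dispersion and by 10 with DESeq2's Wald test, and no granin was among the 12. With the likelihood ratio test the unadjusted p was 0.00531 for *Vgf* and 0.00348 for *Scg2*, and the adjusted p 0.833 and 0.692, where 4.81% of all genes had an unadjusted p under 0.05.

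The 4 members of vesicle formation and processing were spread more than they differed between groups. *Chgb* had 167 to 242 TPM with CNO and 117 to 199 with VEH, and *Chga* had 113 to 151 with CNO and 66.2 to 137 with VEH. In these 2 chromogranins only CNO replicate 4 lay above all VEH samples. *Scg5* had 292 to 410 TPM with CNO and 223 to 376 with VEH, and *Scg3* had 40.5 to 49.03 with CNO and 34.8 to 46.5 with VEH. Their log2 fold changes by the quasi-likelihood test were 0.26 (standard error 0.20) for *Chgb*, 0.23 (0.22) for *Chga*, 0.20 (0.19) for *Scg5* and 0.07 (0.14) for *Scg3*, with unadjusted p from 0.216 to 0.596. The median log2 fold change over the 6 granins was 0.25, against 0.0014 over all genes tested. Without VEH replicate 1 this median was 0.07, with 1 of the 6 genes negative, and without CNO replicate 4 it was 0.12. With a covariate built from cell type markers, the marker index described below, it was -0.06, with 4 negative. CNO replicate 4 was the highest sample and VEH replicate 1 the lowest for each of the 6 genes, so the same 2 pools set the ends of the range in every member.

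This shared order across samples was measured as a correlation of log2 CPM over the 8 samples for the 15 granin pairs (two-sided exact permutation over all orders of the samples, adjusted by Benjamini-Hochberg over the 15 pairs). Pearson's r lay between 0.809 and 0.982, and each pair had an adjusted p of at most 0.0217. Spearman's rho lay between 0.595 and 0.976, and its adjusted p passed 0.05 in 7 pairs and lay between 0.0689 and 0.132 in the other 8. The highest was *Vgf* with *Scg2*, r = 0.982 (adjusted exact p = 0.00112) and rho = 0.976 (adjusted exact p = 0.00595). Without VEH replicate 1 and CNO replicate 4, the samples farthest from the median, *Vgf* and *Scg2* had r = 0.906 (exact p = 0.00417, adjusted p = 0.0625), and the other 14 pairs had r from -0.121 to 0.795. Without these 2 samples no pair had an adjusted exact p under 0.05, *Vgf* with *Scg2* included, although r stayed high in several pairs, such as 0.795 for *Chga* with *Chgb*. With values centred on their group means over all 8 samples, r lay between 0.837 and 0.977 (adjusted exact p of at most 0.0312).

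Every granin also moved with the cell type markers of the pulldown. A marker index, the mean log2 CPM of the 12 PV+ interneuron markers minus that of the 12 pyramidal cell markers, was 1.69, 0.999, 1.51 and 2.10 in CNO replicates 1 to 4 and -0.207, 1.13, 1.55 and 1.42 in VEH replicates 1 to 4. It was lowest in VEH replicate 1 and highest in CNO replicate 4, as the granins were. Over the 8 samples, *Chgb* correlated with it at r = 0.991 (adjusted exact p = 0.000446, over 6 genes) and rho = 0.976 (adjusted exact p = 0.00238). Without those 2 samples *Chgb* had r = 0.965 (adjusted exact p = 0.0250). The other 5 had r from 0.927 to 0.967 and rho from 0.738 to 0.905 over the 8 samples, with adjusted exact p of at most 0.00300 for r and 0.0458 for rho. Without the 2 samples their r was 0.482 to 0.783 and passed 0.05 in none of the 5. In a bulk pulldown, fewer cells of a type and less RNA per cell cannot be told apart. The markers were measured after treatment, so the make-up of the pulldown and an effect of CNO on the markers cannot be told apart either.

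**Figure D2:**
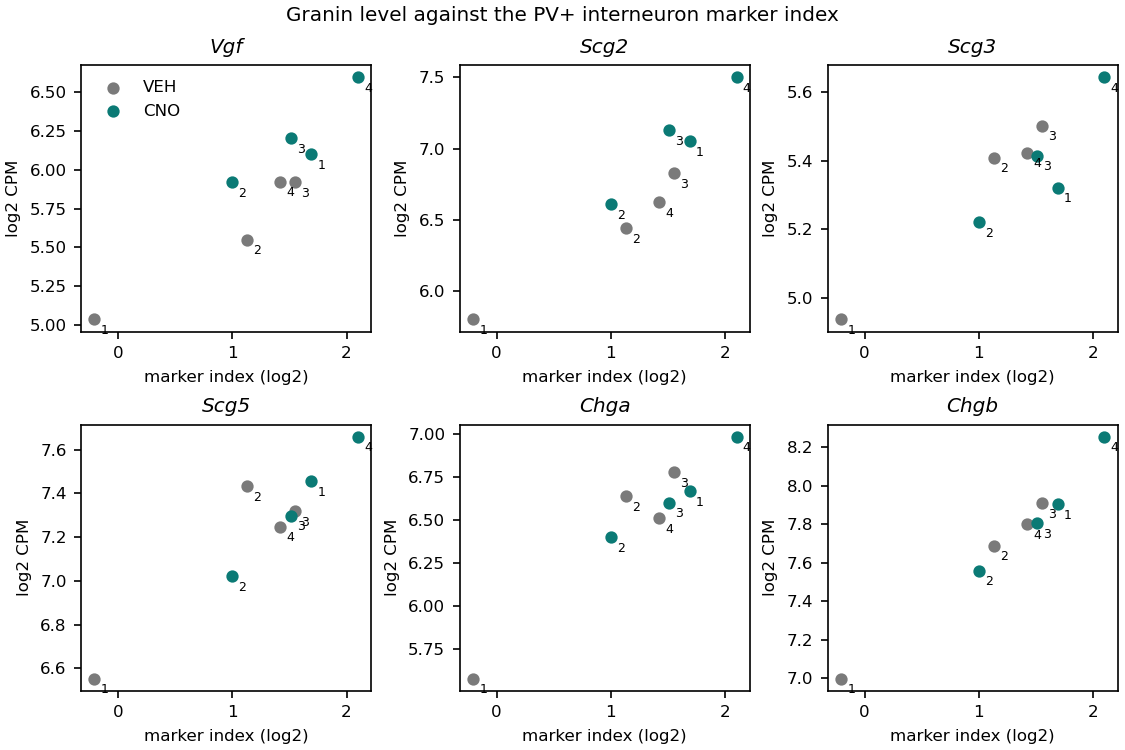
Log2 CPM of each granin gene (vertical axis, not starting at 0) against the marker index (horizontal axis, log2 units), 1 point per sample with its replicate number, VEH in grey and CNO in teal. VEH replicate 1 sits at -0.207 and CNO replicate 4 at 2.10 in every panel, and in *Vgf* and *Scg2* the CNO points lie above the VEH points of similar index.

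The other marker lists moved as follows. All 12 PV+ interneuron markers had positive log2 fold changes (median 0.43, 1 with an unadjusted p under 0.05, *Gad2*, where 1.44% of all genes were higher at that p), and 11 of 12 pyramidal cell markers had negative ones (median -0.14, none at that p). Of 8 markers of other interneurons, 3 were higher and 5 lower in mean, *Lamp5* and *Reln* being lower with an unadjusted p under 0.05, as 2.65% of all genes were. Of 6 astrocyte markers 5 were lower, of 5 oligodendrocyte markers 5, of 6 microglia markers 6 (*P2ry12* with an unadjusted p of 0.0440), and of 4 endothelial markers 0. No marker passed an adjusted p of 0.05 by the quasi-likelihood test.

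With the marker index as a covariate in the quasi-likelihood test, the log2 fold change was 0.29 for *Vgf* (standard error 0.087, unadjusted p = 0.00747) and 0.29 for *Scg2* (standard error 0.087, unadjusted p = 0.0064). Their adjusted p was 1 in this fit of edgeR. In this fit 1.28% of all genes had an unadjusted p under 0.05 with a higher level under CNO. The other 4 turned negative, at -0.11 for *Scg3*, -0.08 for *Scg5*, -0.09 for *Chga* and -0.04 for *Chgb*, with no p under 0.05. Without VEH replicate 1, *Vgf* had 0.41 (standard error 0.155, unadjusted p = 0.0219) and *Scg2* 0.46 (standard error 0.174, unadjusted p = 0.0236), where 0.974% of genes were higher at an unadjusted p under 0.05. The other 4 then had -0.04 for *Scg3*, 0.04 for *Scg5*, 0.03 for *Chga* and 0.09 for *Chgb*. *Vgf* and *Scg2* kept a positive sign in all 24 alternatives, and their size fell most with the marker index and with 1 surrogate variable.

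**Figure D3:**
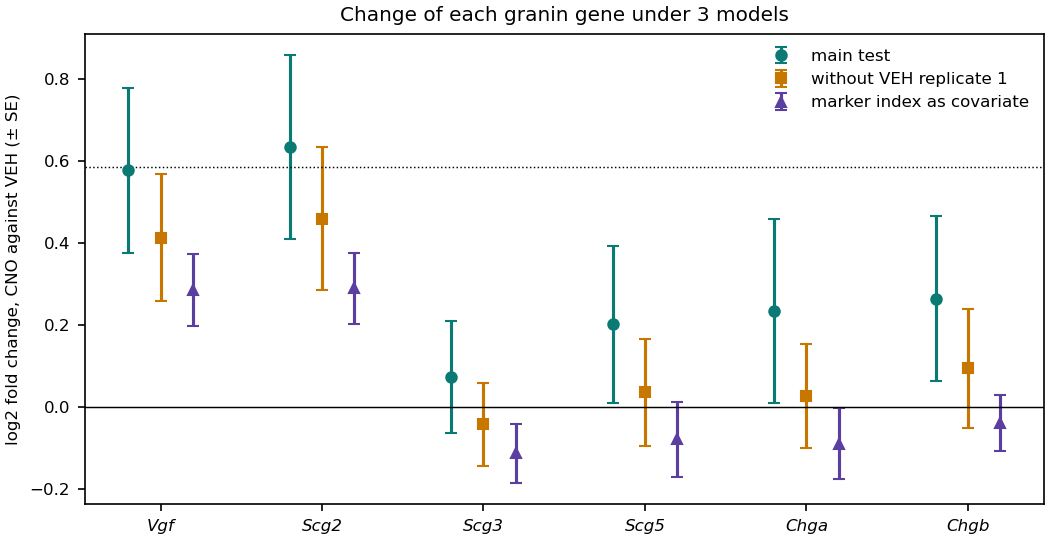
Log2 fold change of CNO against VEH (points, with standard error as bars) for each granin gene in 3 quasi-likelihood fits of edgeR, namely all 8 samples, without VEH replicate 1, and with the marker index as covariate. The dotted line marks 1.5-fold. *Vgf* and *Scg2* stayed at or above 0.285 in the 3 fits, whereas *Scg3*, *Scg5*, *Chga* and *Chgb* fell to between -0.11 and -0.04 with the index.

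Whether granins changed by unequal amounts was tested within samples, where what acts equally on 2 genes drops out. The differences from *Scg3* did not drop the shared order, since both were lowest in VEH replicate 1 (0.0987 for *Vgf*, 0.865 for *Scg2*) and highest in CNO replicate 4 (0.954 and 1.86), as the marker index was. For each of the 15 pairs, the difference in log2 CPM between the 2 genes was compared between groups (two-sided exact permutation test over 70 assignments, adjusted by Benjamini-Hochberg over the 15 pairs). *Vgf* minus *Chgb* was -1.80, -1.64, -1.60 and -1.66 in CNO replicates 1 to 4 and -1.96, -2.14, -1.99 and -1.88 in VEH replicates 1 to 4. *Scg2* minus *Chgb* was -0.85, -0.95, -0.68 and -0.75 with CNO and -1.20, -1.24, -1.08 and -1.17 with VEH. In both, every CNO sample lay above every VEH sample, and VEH replicate 1 lay among the other VEH samples.

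The group difference was 0.32 for *Vgf* relative to *Chgb* (means -1.68 ± 0.088 and -1.99 ± 0.11, SD, n = 4 each) and 0.37 for *Scg2* relative to *Chgb* (means -0.81 ± 0.12 and -1.17 ± 0.070, SD, n = 4 each). It was 0.52 for *Vgf* relative to *Scg3*, 0.57 for *Scg2* relative to *Scg3* and 0.43 for *Scg2* relative to *Scg5*. In each of these 5 pairs the groups did not overlap (exact p = 0.0286, the smallest possible), and the adjusted p was 0.0857, so none passed 0.05 after adjustment over the 15 pairs. Relative to *Chgb*, 57 of the other 17494 genes (0.326%) were higher in every CNO sample than in any VEH sample, and this share was 1.54% relative to *Scg3*, 0.537% relative to *Scg5* and 0.297% relative to *Chga*. *Vgf* relative to *Scg5* and *Chga* and *Scg2* relative to *Chga* differed by 0.38, 0.31 and 0.36, with 3 of 4 CNO samples above all VEH samples (exact p = 0.0571, adjusted p = 0.107 each).

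**Figure D4:**
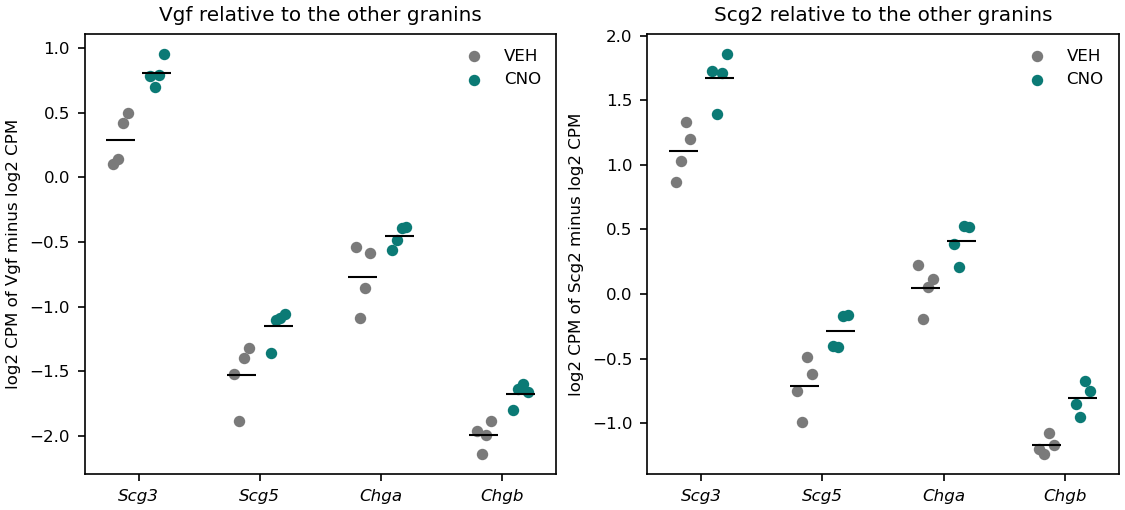
Log2 CPM of *Vgf* (left) and of *Scg2* (right) minus that of each other granin in the same sample, with VEH in grey, CNO in teal and lines at the group means; the vertical axes are log2 differences. The groups do not overlap for *Vgf* relative to *Scg3* and *Chgb* and for *Scg2* relative to *Scg3*, *Scg5* and *Chgb*.

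With each sample left out in turn, all 8 differences of *Vgf* or *Scg2* from the other 4 granins stayed positive, the lowest being 0.205, for *Vgf* relative to *Chga* without VEH replicate 2. *Vgf* and *Scg2* were not separated from each other, with a group difference of -0.05 (exact p = 0.571). The 6 pairs among *Scg3*, *Scg5*, *Chga* and *Chgb* differed by -0.205 to 0.00464 (exact p of at least 0.143). The direction of *Scg5* relative to *Chga* and to *Chgb*, and of *Chga* relative to *Chgb*, turned when single samples were left out.

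The spread within groups depended on the same sample. The standard deviation of log2 CPM within groups was 0.42 for *Chga*, 0.41 for *Scg2*, 0.36 for *Vgf* and *Chgb*, 0.34 for *Scg5* and 0.22 for *Scg3*, against a median of 0.21 over genes with a mean above 1 TPM. Leaving out VEH replicate 1 gave 0.31 for *Scg2*, 0.26 for *Vgf*, 0.23 for *Chgb*, 0.22 for *Scg5*, 0.205 for *Chga* and 0.14 for *Scg3*, against a median of 0.18. *Chga* thus went from the highest of the 6 to the fifth, and no test was made of these differences.

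The granin precursors are cut, trimmed and packed by a machinery of dense-core vesicles, and 18 genes of it were listed and tested. Of these, 8 had a higher and 10 a lower mean under CNO, the median log2 fold change was -0.03, and the range was -0.59 to 0.25. None was higher at an unadjusted p under 0.05 and 3 were lower, beside 1.44% and 2.65% of all genes, and no adjusted p passed 0.05 by the quasi-likelihood test. Without CNO replicate 1, CNO replicate 4, VEH replicate 1 or VEH replicate 4 the number lower was 1, and without CNO replicate 2 there were 2 higher and 4 lower. The count over all genes, in either direction, moved too. It was 716 with all samples, then 496, 330, 400 and 766 in those fits in the same order, and 1699 without CNO replicate 2.

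*Pcsk2* encodes PC2, the convertase that 7B2 assists. It had 108.8, 136.8, 133.8 and 100.8 CPM in CNO replicates 1 to 4 and 184.7, 151.4, 137.2 and 144 CPM in VEH replicates 1 to 4. Every CNO sample lay below every VEH sample in CPM, by a small margin between CNO replicate 2 and VEH replicate 3, and VEH replicate 1 was the highest. In TPM the groups overlapped. Its log2 fold change was -0.36 (standard error 0.13, unadjusted p = 0.0209), and 1.63% of all genes lay lower in every CNO sample. *Pcsk2* overlaps 2 antisense genes in the annotation, and 6.10% of the 31-base stretches of its transcripts occur in other genes, so a part of its reads is uncertain.

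*Syt10*, a calcium sensor of vesicle release, had 1.08 to 1.94 CPM with CNO and 2.26 to 2.70 with VEH, without overlap (log2 fold change -0.59, standard error 0.21, unadjusted p = 0.0186). *Cadps2*, a priming factor of dense-core vesicles, averaged 137.1 ± 19.3 CPM (SD, n = 4) in CNO samples and 169.8 ± 20.9 CPM (SD, n = 4) in VEH samples (log2 fold change -0.31, standard error 0.13, unadjusted p = 0.0371). *Qpct*, which forms N-terminal pyroglutamate, did not overlap between groups but had an unadjusted p of 0.0867 (log2 fold change -0.42). In *Syt10* and *Qpct* every CNO sample lay below every VEH sample in CPM, as in 1.63% of all genes. Both rest on few reads per sample, 51 to 134 for *Syt10* and 44 to 110 for *Qpct*. With the marker index as covariate, 2 of the 18 genes were lower at an unadjusted p under 0.05, as were 1.91% of all genes.

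The other convertase and trimming genes showed small differences. *Pcsk1*, the convertase PC1/3, had a log2 fold change of -0.20, *Furin* 0.16, and *Pcsk1n*, the PC1/3 inhibitor proSAAS, 0.22. *Cpe*, carboxypeptidase E, was the most abundant gene of the list at 1860 ± 161 TPM (SD, n = 4) in CNO samples and 2011 ± 214 (SD, n = 4) in VEH samples (log2 fold change -0.04). *Cpd* and *Pam*, the amidating enzyme, had -0.03 and 0.06. The vesicle genes *Cadps*, *Ccdc186*, *Syt7* and *Ptprn* had 0.25, 0.22, 0.22 and 0.13, *Tssc1* (also called Eipr1) had 0.02, and *Syt4*, *Ptprn2* and *Hid1* had -0.12, -0.13 and -0.14. None of these 14 genes had an unadjusted p under 0.05.

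**Figure D5:**
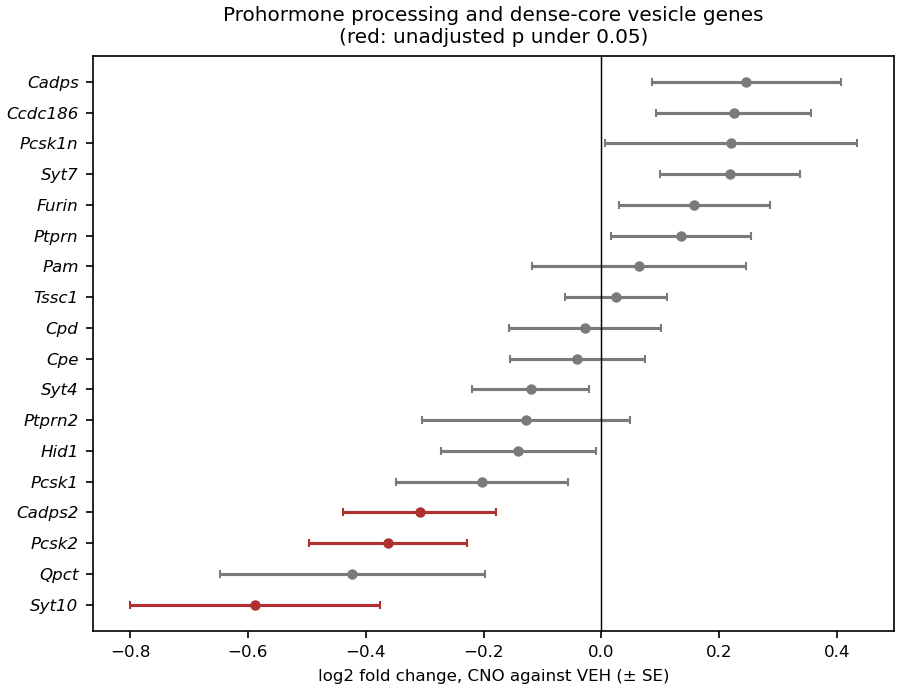
Log2 fold change of CNO against VEH (points, with standard error as bars, edgeR quasi-likelihood test) for 18 genes of prohormone processing and dense-core vesicles, ordered by value, with genes at an unadjusted p under 0.05 in red. The 3 red genes, *Syt10*, *Pcsk2* and *Cadps2*, lie below 0.

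Genes for proteins that bind VGF peptides were also measured. *C3ar1*, the complement C3a receptor to which TLQP-21 binds and which is known from microglia, had a low level, 0.939 ± 0.12 TPM (SD, n = 4) in CNO samples and 1.12 ± 0.11 (SD, n = 4) in VEH samples. *C1qbp*, a mitochondrial and cell-surface protein that binds TLQP-21, had 119 ± 19.9 TPM (SD, n = 4) in CNO samples and 102 ± 24.2 (SD, n = 4) in VEH samples. Neither difference had an unadjusted p under 0.05 (log2 fold changes -0.19 and 0.29). *C1qbp* had its lowest level in VEH replicate 1 and its highest in CNO replicate 4, as did the granins.

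Of 11 listed genes, activity-regulated genes and members of the CREB family, 8 had a higher and 3 a lower mean with CNO, and 4 were higher at an unadjusted p under 0.05, as were 1.44% of all genes. These were *Fos* (log2 fold change 1.93, standard error 0.22), *Fosb* (1.88, 0.26), *Fosl2* (0.69, 0.18) and *Nr4a1* (0.68, 0.22). The smallest adjusted p, 0.0520 by the quasi-likelihood test, was that of *Fos*, and the likelihood ratio test on robust dispersion gave adjusted p = 6.25e-20 for *Fos* and 1.29e-07 for *Fosb*. *Vgf* and *Scg2*, at 0.58 and 0.63, thus lay near *Fosl2* and *Nr4a1* in size and far below *Fos*. The 12 PV+ interneuron markers ranged from 0.08 to 0.63, with *Slc32a1* at 0.63 (standard error 0.45), *Gad1* at 0.57 (0.30), *Syt2* at 0.57 (0.34) and *Gad2* at 0.52 (0.21). Of the 12, *Gad2* alone had an unadjusted p under 0.05 by the quasi-likelihood test. The markers named here were lowest in VEH replicate 1, as *Vgf* and *Scg2* were. Whether a change of this size is particular to activity-regulated genes was not tested. *Crem*, a CREB-family gene, had 0.23 and every CNO sample above every VEH sample, as in 0.789% of all genes (unadjusted p = 0.0536), while *Creb1* and *Atf1* had -0.03 and -0.06. *Junb*, *Npas4*, *Egr1* and *Bdnf* had 0.28, 0.14, 0.07 and -0.25, with unadjusted p from 0.0782 to 0.705.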

How the data were processed

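Reads had been passed by the authors through Trim Galore and STAR (GRCm38), and Salmon gave the estimated counts of each gene, which the authors deposited without normalization. The authors also deposited TPM derived from those counts. The estimated counts were rounded, and genes whose count was below 10 in at least 4 samples were dropped, which left 17495. After TMM normalization, CNO was set against VEH with the quasi-likelihood test of edgeR 4.0.16 in R 4.3.3, and p-values were adjusted by Benjamini-Hochberg over all genes tested. Log2 CPM of single samples used a prior count of 2. The standard error of a log2 fold change was its size divided by the square root of the F statistic. Other software was limma 3.58.1, DESeq2 1.42.0, sva 3.50.0, Python 3.11.15 and matplotlib 3.10.9. GENCODE release 21 held 45143 of the 45706 gene identifiers.

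The members, the gene lists and the tests were chosen with earlier results of these data known. Genes named were the granins, the members of the lists (markers by list, with single ones named after their values were seen) and the 5 genes most like *Vgf* and *Scg2* by Pearson's r. Alternatives changed the test, normalization, filter, unit, pseudocount and covariates, and left out each sample in turn. The exact tests on TPM or without VEH replicate 1, the other values without that sample for means and spread, the medians over the granins by setting, and the combinations of the likelihood ratio test with a covariate were added after seeing the data. The tests were tried on simulated data first. None of the 28 pairs of samples agreed within sampling noise. Depth per sample and its floor are given with the results.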

Additional observations from a re-analysis of the deposited data

Results flagged for a closer look

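*Scg3* in VEH replicate 1 lay far below the other 3 VEH samples. Its log2 CPM was 4.94 against 5.50 in the highest VEH sample, and its gap to the nearest sample was 0.836 of the group's range, above Dixon's critical value for 4 samples. Chance flags about 1 in 20 groups, and 12 groups (6 genes in CNO and in VEH) were examined. The same sample had the lowest PV+ interneuron marker sum, 1379 TPM, and the part of this in the *Scg3* level was not tested.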

How the results depend on the processing

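Among 24 alternatives, *Vgf* kept a log2 fold change of 0.285 to 0.682 and *Scg2* one of 0.29 to 0.777. Both passed an adjusted p of 0.05 in 1 alternative, which joined the likelihood ratio test on robust dispersion with a term for replicates 1 and 2 against 3 and 4 (0.577, adjusted p = 0.0139, and 0.627, adjusted p = 0.0348, of which *Scg2* alone exceeded 1.5-fold). No label names those replicates as batches. The other 4 granins turned negative with the marker index (*Scg3* -0.112, *Scg5* -0.0781, *Chga* -0.0885, *Chgb* -0.0389) and with 1 surrogate variable (-0.105, -0.0664, -0.0623, -0.0228). With the likelihood ratio test they were -0.112, -0.0451, -0.0808 and -0.0389 with the index and -0.105, -0.0421, -0.0871 and -0.0228 with the surrogate variable. With each sample left out in turn, *Scg3* ranged from -0.0419 (without VEH replicate 1) to 0.135, and was -0.0172 without CNO replicate 4. The group difference of *Chga* relative to *Chgb* ranged from -0.0606 to 0.0623, that of *Scg5* relative to *Chga* from -0.139 to 0.00489, and relative to *Chgb* from -0.105 to 0.00775. The level of *Vgf* over *Scg3* ranged from 0.301 to 0.413. Why these values moved was not tested. The exact test of *Vgf* on log2(TPM + 1) gave a difference of 0.49 and p = 0.0286. Without VEH replicate 1 the difference in mean log2 CPM of *Scg3* was -0.045.

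The number of genes at an unadjusted p under 0.05 was 716, and 1126 without a filter, 1193 with the term for replicates 1 and 2 against 3 and 4 (1379 with the likelihood ratio test) and 330 (without CNO replicate 4) to 1699 (without CNO replicate 2) with a sample left out. It was 400 without VEH replicate 1. Genes past all cut-offs numbered 0, and 12 with the likelihood ratio test, 10 with DESeq2, 4 without a filter, 3 with that term and 0 to 2 with a sample left out. The likelihood ratio test gave 13 with the index, 14 with the surrogate variable, 23 with that term and 11 with the replicate block. Of the 18 vesicle genes, 0 to 2 were higher and 1 to 4 lower with a sample left out.

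Without VEH replicate 1 and CNO replicate 4, Pearson's r was 0.906 for *Vgf* with *Scg2*. It was -0.105, -0.121, -0.0127 and 0.431 for *Vgf*, and 0.0948, 0.251, 0.351 and 0.632 for *Scg2*, with *Scg3*, *Scg5*, *Chga* and *Chgb*. It was 0.508, 0.732 and 0.653 for *Scg3* with *Scg5*, *Chga* and *Chgb*, 0.772 and 0.66 for *Scg5* with *Chga* and *Chgb*, and 0.795 for *Chga* with *Chgb*. Fewer samples alone widen the error of r.

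The groups share replicate numbers, but deviations of same-numbered samples correlated at 0.0263, -0.0302, 0.161 and 0.239, so the numbers were taken as names, and not every sample correlated best with its own number. Of the 8 correlations within replicates 1 and 2 or within 3 and 4, 7 were positive (-0.0302 to 0.431), and the 8 across them were all negative (-0.403 to -0.0446), a hint from the data and not from the labels. These signs are tied to each other, since deviations from a group mean cancel over its samples. The negative values across are therefore no separate evidence. With the replicate block *Vgf* had 0.597, *Scg2* 0.647 and *Chgb* 0.281, 765 genes had an unadjusted p under 0.05, and 0 passed all cut-offs. No call on the granins changed with the block.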

Other observations

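The genes most like *Vgf* over the 8 samples, by Pearson's r of log2 CPM among 15172 other genes with a mean above 1 TPM, were *Nab1* (0.989), *Afap1* (0.989), *Rps4l* (0.985), *Ddb1* (0.984) and *Adamts1* (0.983), and *Scg2* ranked 7. *Rps4l* shares 26.0% of its 31-base stretches with other genes, so its level is uncertain. The genes most like *Scg2* were *Cdadc1* (0.990), *Rgs2* (0.989), *Ppfia4* (0.989), *Srxn1* (0.988) and *Shroom2* (0.986), and *Vgf* ranked 8. Such values were common, since 503 genes had r above 0.9 with *Vgf* and 1086 with *Scg2*, and VEH replicate 1 and CNO replicate 4 set the ends of the range of both. By the quasi-likelihood test their log2 fold changes ran from 0.243 for *Ddb1* to 0.531 for *Adamts1*, a secreted protease (standard error 0.21, unadjusted p = 0.0285). *Rgs2*, a regulator of G-protein signalling, had 0.49 (standard error 0.155, unadjusted p = 0.00916). *Nab1*, a co-regulator of EGR factors, had 0.40 (standard error 0.13, unadjusted p = 0.0129), and *Ppfia4* 0.39 (standard error 0.147, unadjusted p = 0.0235). The rest had unadjusted p from 0.0524 to 0.0772, where 1.44% of all genes were higher at an unadjusted p under 0.05. Likeness over the same samples favours a higher level with CNO, so these p-values are no separate evidence.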
